A study of Mus musculus with 11 samples.

Results

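CD49f+CD34+ cells that lack SCA-1 were sorted from the epidermal back skin of *CD4Cre/tdT* mice, and the 3 libraries of tdT+CD49f+CD34+ cells are set here against the 3 libraries of tdTnegCD49f+CD34+ cells, 6 of the 11 libraries of the series. The libraries were chosen by their labels alone, and all 55536 Ensembl genes of the files were considered, of which 20307 had enough counts to be tested. The other 5 libraries hold CD49f+CD34+SCA-1+ cells and are used for the estimate of the spread and as values set beside.

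CD49f (integrin alpha 6) anchors basal keratinocytes to the basement membrane, and CD34 marks the bulge, the niche of the hair follicle that keeps its resting stem cells. Bulge stem cells renew the follicle in cycles, whereas the upper follicle (infundibulum and junctional zone) and the interfollicular epidermis (IFE) are maintained largely by stem cells of their own, and IFE cells leaving the basal layer switch from keratins 5 and 14 to keratins 1 and 10. In *CD4Cre/tdT* mice Cre is driven by the *Cd4* promoter and switches on tdTomato (tdT) for good, so that tdT marks cells that express *Cd4* or descend from such cells, T cells included.

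All 6 libraries came from male C57Bl6/N mice that carried *CD4Cre* and the R26-tdT reporter, and the labels name no treatment. Each library pooled the cells of 2 mice. Replicate 1 was from mice aged 29 weeks and replicates 2 and 3 from mice aged 32 weeks in both groups. The groups differ in the tdT gate, as far as the labels tell. The label records past as well as present *Cd4* expression, and the stated antibodies were to CD49f, CD34 and SCA-1, with none to a pan-leukocyte antigen. The gates for CD34 and against SCA-1 would remove many mature leukocytes, since most lack CD34 and many T cells carry SCA-1. How many remained was not tested. Values for single libraries are given in the order of replicates 1, 2 and 3, as CPM, the counts per 1e+06 of a library total scaled by the TMM method.

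Depth differed with the group. The tdT+ libraries held 18042009 to 24764941 counts and the tdTneg libraries 39364902 to 46542177. A further row has no Ensembl identifier, and nothing in the sources says what it counts. It followed the tdT label in all but 1 of the 11 libraries. It stood at 133 and 252 CPM in tdT+ replicates 1 and 3 and at 2.54 to 3.78 CPM in the tdTneg libraries, but at 2.05 CPM (37 counts, 95% Wilson interval 1.49 to 2.83) in the library labelled tdT+ replicate 2. Intervals of this kind cover counting error only. Because this row goes against its label, results are also given without the library labelled tdT+ replicate 2. The first principal component of the 6 libraries (59.6% of the variance) did not separate the groups. It set tdT+ replicate 1, the library labelled tdT+ replicate 2 and tdTneg replicate 2 (scores of −141, −104 and −92.0) apart from tdT+ replicate 3, tdTneg replicate 1 and tdTneg replicate 3 (scores of 127, 98.2 and 111).

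**Figure D1:**
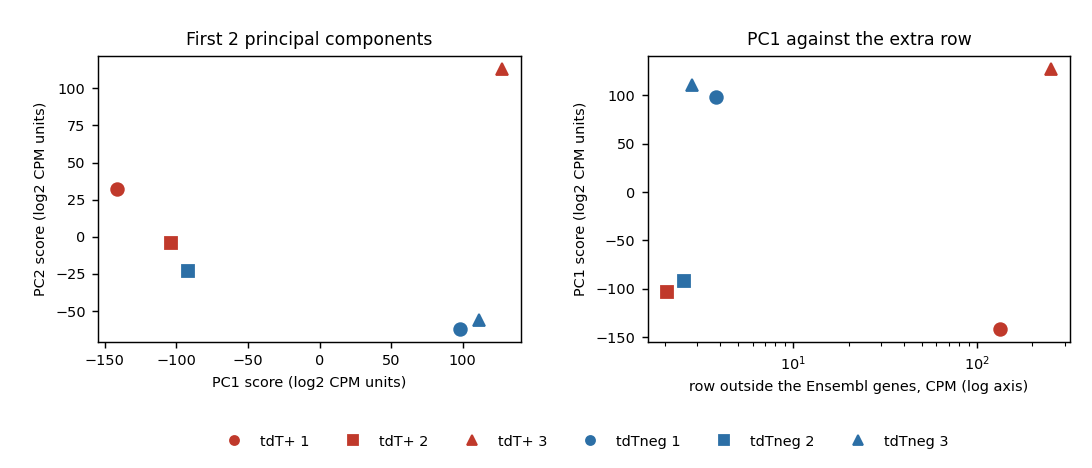
Left, scores of the 6 libraries on the first 2 principal components of log2 CPM. Right, the score on the first component (vertical) against the level of the row outside the Ensembl genes (CPM, log axis), with 1 point per library, red for tdT+ and blue for tdTneg. The first component mixes the groups, and the square of the library labelled tdT+ 2 lies at the tdTneg level of the row, 2.05 CPM.

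The 6 libraries all carried the bulge programme. *Cd34* stood at 468, 735 and 842 CPM in tdT+ and at 864, 638 and 1130 CPM in tdTneg cells, and *Krt15*, the bulge keratin, at 6274, 6312 and 9217 against 9280, 9868 and 11550. *Itga6*, which encodes CD49f, stood at 387, 547 and 566 against 615, 512 and 548 CPM. In SCA-1+ cells the mean of *Cd34* was 27.4 CPM in tdT+ and 351 CPM in tdTneg libraries. *Ly6a*, which encodes the SCA-1 antigen gated out here, was low in both groups, at 27.6, 59.2 and 9.64 CPM in tdT+ and 5.74, 2.46 and 2.903 CPM in tdTneg cells, against means of 202 and 179 CPM in tdT+ and tdTneg SCA-1+ cells. Its groups did not overlap (log2 fold change 3.11, SE 0.61, adjusted p = 0.174, edgeR, and 2.33 without the library labelled tdT+ replicate 2). Both groups were gated against SCA-1, and what lies behind this difference was not tested. *Cd4* itself was near the limit of detection. It had 25, 1 and 22 raw counts in the tdT+ libraries and 11, 25 and 12 in the deeper tdTneg libraries, groups that overlap. The 1 count was in the library labelled tdT+ replicate 2. The log2 fold change was 1.02, with an interval from −1.40 to 3.44. It ran from 0.60 to 1.61 with 1 library left out and was −0.16 with limma voom, so a difference in *Cd4* is not bounded by these libraries.

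Between tdT+ and tdTneg CD49f+CD34+ cells, 2 of 20307 genes (0.00985%) rose and 0 fell in edgeR's quasi-likelihood test at an adjusted p under 0.05 and a log2 fold change over 1 in size. They were *Akna* and *Ly6d*. With only the 6 libraries compared, so without the estimate of the spread from the SCA-1+ cells, neither was called (log2 fold changes of 3.56 and 2.09, adjusted p = 0.401 and 0.231, edgeR). Neither was called without the library labelled tdT+ replicate 2, tdTneg replicate 1 or tdTneg replicate 3, and without any of the other 3 libraries *Akna* was called and *Ly6d* was not. At an unadjusted p under 0.05, 926 genes were higher (4.56%) and 783 lower (3.86%), of both together 8.42%. With RLE size factors, another scaling, these counts were 1126 and 422, so that the higher share of both went from 54.2% to 72.7%. DESeq2, the tool of the study, called 308 genes higher (1.52%) and 24 lower (0.118%), and all of them were among the genes with an unadjusted edgeR p under 0.05. Precision was limited by the spread between libraries. The median half-width of the 95% interval of a log2 fold change was 0.94, and for 8403 genes (41.4%) the whole interval lay between −1 and 1. Each replicate is a pool of mice, so differences between single mice are not seen.

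*Akna* (ENSMUSG00000039158, chromosome 4, 63367125 to 63403354, minus strand, mm10) encodes an AT-hook protein known from lymphoid cells and from the centrosome. It stood at 13.7, 11.3 and 6.78 CPM in tdT+ and at 0.764, 1.19 and 0.805 CPM in tdTneg cells, so that the lowest tdT+ library was above the highest tdTneg library several times over. The log2 fold change was 3.52 (SE 0.34, adjusted p = 0.0252, edgeR), an 11.5-fold rise. It stayed called with the replicate number as a block (adjusted p = 0.0468) but not without the library labelled tdT+ replicate 2 (log2 fold change 3.47, adjusted p = 0.0696). In 16 other settings the log2 fold change was between 3.29 and 3.79, the adjusted p between 4.08e-19 and 0.401, and the gene was called in 11. In SCA-1+ cells *Akna* was higher still, at 26.9, 36.1 and 39.7 CPM in tdT+ and 12.2 and 16.8 CPM in tdTneg libraries.

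*Ly6d* (ENSMUSG00000034634, chromosome 15, 74762056 to 74763620, minus strand) encodes a small GPI-anchored surface protein of the Ly6 family that is known from differentiating keratinocytes and from early B lineage cells. Its level was 252, 248 and 318 CPM in tdT+ and 79.7, 52.4 and 66.8 CPM in tdTneg cells. The log2 fold change was 2.04 (SE 0.23, adjusted p = 0.0415, edgeR), a 4.11-fold rise, with differences between same-numbered libraries of 1.65, 2.22 and 2.23 on the log2 scale. The call was lost with the replicate block (adjusted p = 0.0694) and without the library labelled tdT+ replicate 2 (2.10, adjusted p = 0.0946), and over 16 settings the adjusted p ran from 6.89e-18 to 0.257 with a log2 fold change of 1.83 to 2.19. In SCA-1+ cells *Ly6d* reached 847, 1318 and 899.6 CPM in tdT+ and 456 and 389 CPM in tdTneg libraries. Of 13 genes of the Ly6 family listed, 9 were tested, and 2 were higher without overlap, against 5.07% of all genes. The other was *Ly6g6c*, at 77.2, 108 and 90.3 against 50.4, 16.97 and 21.2 CPM.

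**Figure D2:**
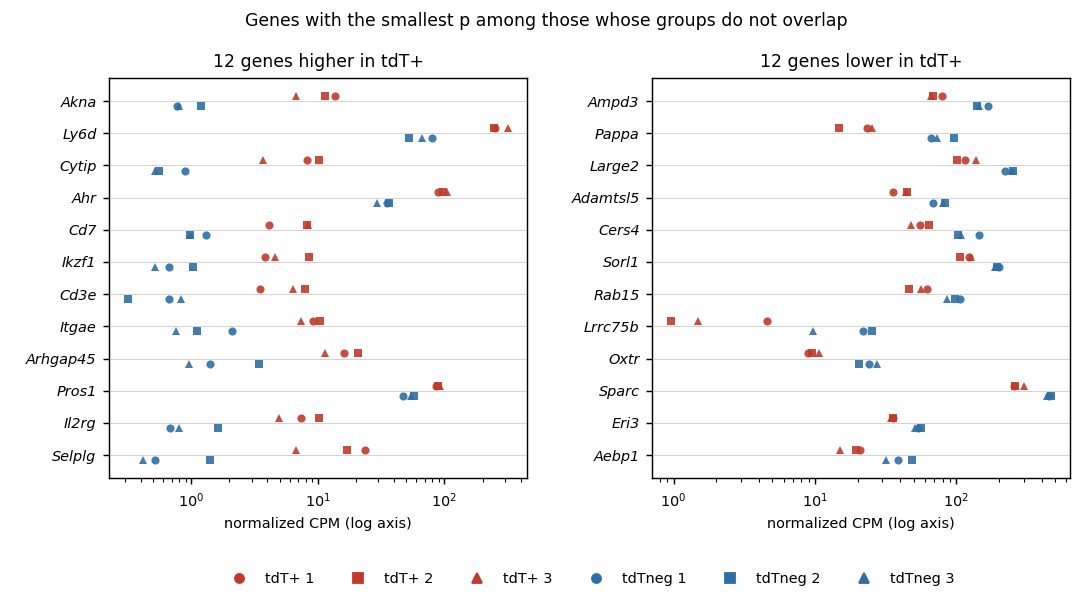
Normalized CPM (log axis) in each of the 6 libraries for the 12 genes higher and the 12 lower in tdT+ cells with the smallest p among genes whose groups do not overlap and whose higher group averages at least 5 CPM. Red points are tdT+ and blue points tdTneg libraries, with a symbol per replicate (the red square is the library labelled tdT+ 2), and most of the genes on the left lie below 25 CPM.

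The groups did not overlap for 1029 genes higher (5.07%) and 2223 lower (10.9%) in tdT+ cells, or 1337 (6.58%) and 1483 (7.3%) with RLE size factors. Without the library labelled tdT+ replicate 2 these counts were 1795 (8.84%) and 3527 (17.4%). Among the 12 genes with the smallest p of those higher, *Cytip*, a regulator of leukocyte adhesion, stood at 8.25, 10.1 and 3.69 against 0.888, 0.555 and 0.512 CPM (log2 fold change 3.48, SE 0.44, adjusted p = 0.0505). *Ikzf1*, the lymphoid transcription factor Ikaros, stood at 3.85, 8.57 and 4.57 against 0.661, 1.03 and 0.512 CPM. The surface protein gene *Cd7* stood at 4.12, 8.25 and 8.38 against 1.302, 0.978 and 0.976 CPM. *Itgae*, the integrin by which T cells hold to E-cadherin of epithelia, stood at 9.11, 10.4 and 7.33 against 2.11, 1.11 and 0.756 CPM. *Arhgap45*, *Il2rg* and *Selplg*, also genes of blood cells, followed with log2 fold changes of 3.06, 2.85 and 4.35 and an adjusted p of 0.113 each. With the replicate block *Ikzf1*, *Arhgap45* and *Il2rg* were called beside *Akna*. None of these reached 25 CPM in any of the 6 libraries.

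*Cd3e* is described with the T cell genes. *Ahr*, the aryl hydrocarbon receptor, a ligand-activated transcription factor of keratinocytes and of resident lymphocytes, stood at 88.3, 97.96 and 105 CPM in tdT+ and 34.9, 36.5 and 29.1 CPM in tdTneg cells (log2 fold change 1.54, SE 0.19, adjusted p = 0.0505, edgeR). Its libraries differed less within a group than those of any lymphoid gene above, and it was called in 7 of 16 other settings. *Pros1*, which encodes protein S, a ligand of TAM receptor kinases, stood at 86.5, 88.6 and 91.6 against 47.4, 57.6 and 54.6 CPM, a log2 fold change of 0.74.

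Among the 12 lower genes *Sparc*, a matrix protein of the bulge niche, stood at 254, 262 and 303 CPM in tdT+ and 452, 468 and 436 CPM in tdTneg cells (log2 fold change −0.73, SE 0.15, adjusted p = 0.1904). *Pappa*, a protease that frees insulin-like growth factor from its binding proteins, stood at 23.4, 14.9 and 25.4 against 66.4, 96.3 and 72.7 CPM (−1.88, SE 0.28, adjusted p = 0.0719). *Ampd3*, an AMP deaminase, stood at 79.2, 68.1 and 66.5 against 168, 139.6 and 146 CPM (−1.08, SE 0.15, adjusted p = 0.0589). *Oxtr*, the oxytocin receptor, stood at 8.88, 9.53 and 10.6 against 23.99, 20.6 and 27.6 CPM. *Cers4*, a ceramide synthase, stood at 55.4, 64.1 and 48.1 against 144, 102 and 108 CPM. The others were *Large2*, *Adamtsl5*, *Sorl1*, *Rab15*, *Lrrc75b*, *Eri3* and *Aebp1*, with log2 fold changes from −0.60 (*Eri3*) to −3.01 (*Lrrc75b*). Each of the 12 kept its direction in all 16 other settings, but they were chosen for groups that do not overlap, so this is no further support.

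RefSeq promoter windows on GRCm38.p6, 250 bases before to 50 after a start, were found for 7 of the 12 higher and 9 of the 12 lower genes, with no entry for *Ly6d*, *Ahr*, *Cd7*, *Itgae*, *Selplg*, *Pappa*, *Large2* and *Lrrc75b*. The windows of *Akna*, the called gene, and of *Cytip* and *Il2rg* are shown because they hold the RUNX core TGTGGT on either strand, which is in capitals. *Arhgap45* holds it too, in each of its 3 windows, which are not printed, and its windows 1 and 2 overlap and share the same match. Of the 2 windows of *Akna* the first, shown here, holds the letters and the second does not. The *Akna* window shown lies at chr4:63403396-63403695, that of *Cytip* at chr2:58160073-58160372 and that of *Il2rg* at chrX:101268206-101268505, all on the minus strand.
Akna: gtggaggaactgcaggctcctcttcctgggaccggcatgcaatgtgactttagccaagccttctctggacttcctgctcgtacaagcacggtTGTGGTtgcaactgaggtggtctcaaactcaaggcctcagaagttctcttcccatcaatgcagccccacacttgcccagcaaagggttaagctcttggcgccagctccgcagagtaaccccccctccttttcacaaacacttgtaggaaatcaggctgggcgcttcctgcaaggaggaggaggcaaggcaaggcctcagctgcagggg
Cytip: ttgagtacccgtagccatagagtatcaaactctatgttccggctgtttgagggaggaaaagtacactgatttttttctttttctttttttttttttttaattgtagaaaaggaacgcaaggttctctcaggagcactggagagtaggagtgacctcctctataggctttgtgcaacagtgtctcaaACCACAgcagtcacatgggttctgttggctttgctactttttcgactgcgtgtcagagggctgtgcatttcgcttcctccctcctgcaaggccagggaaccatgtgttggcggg
Il2rg: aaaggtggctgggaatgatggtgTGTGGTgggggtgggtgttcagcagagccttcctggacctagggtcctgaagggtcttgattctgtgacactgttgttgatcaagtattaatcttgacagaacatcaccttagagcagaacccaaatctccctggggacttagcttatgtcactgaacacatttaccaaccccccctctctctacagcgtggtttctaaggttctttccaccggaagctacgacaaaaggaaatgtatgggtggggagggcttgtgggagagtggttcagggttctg
These letters were found in a window of 4 of the 7 higher and 2 of the 9 lower genes, and of 18.9% of the 27025 genes in the table. The ETS core AGGAAG was in 6 of 7 and 3 of 9, against 38.4% of all genes. The AHR core GCGTG was in 3 of 7 and 5 of 9, against 35.2%, and the AP-1 site TGANTCA in 0 of 7 and 2 of 9, against 8.97%. A match is a run of letters and was not tested as a binding site.

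The T cell list of 19 genes, all tested, was higher on average in tdT+ cells in 18, and for 13 the groups did not overlap in that direction, against 5.07% of all genes. In edgeR none was called, and in DESeq2 12 were called higher, against 1.52% of all genes. An unadjusted edgeR p under 0.05 was reached by 13, all higher, against 4.56% of all genes. The median log2 fold change was 2.97, against −0.03 over all genes tested. *Cd3e*, a chain of the T cell receptor complex, stood at 3.49, 7.87 and 6.39 CPM in tdT+ and 0.661, 0.317 and 0.829 CPM in tdTneg cells (3.28, SE 0.47, adjusted p = 0.0604, edgeR). *Trac*, the constant segment of the alpha chain, stood at 1.81, 1.45 and 3.25 against 0.331, 0.106 and 0.0732 CPM, and *Cd3d* at 3.49, 2.41 and 1.98 against 0.248, 0.211 and 0.293 CPM. *Trdc*, the constant segment of the delta chain, stood at 4.53, 9.16 and 13.3 against 1.55, 0.159 and 1.07 CPM. The constant segments *Trac* and *Trdc* were thus both higher in each tdT+ library. *Trbc2* was the exception, at 6.34, 6.11 and 3.31 against 6.74, 7.93 and 8.68 CPM, and the most abundant member, *Thy1*, overlapped at 16.9, 38.4 and 18.8 against 23.8, 18.03 and 21.8 CPM. Summed over the list the tdT+ libraries held 67.2 to 104 CPM and the tdTneg libraries 39.9 to 41.7 CPM, and no defining marker was at 0. In bulk cells, more cells of a type and more RNA per cell cannot be told apart, and how many T cells passed the gates was not tested. Without the library labelled tdT+ replicate 2, 13 members had an unadjusted p under 0.05, all higher, where 3.42% of all genes were higher and 3.94% lower. Across the 16 other settings the median of the list stayed between 2.22 and 3.11.

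The level of this list was close within each group, at a mean log2 CPM of 1.41, 1.39 and 1.85 in tdT+ and −0.45, −0.54 and −0.47 in tdTneg cells. In SCA-1+ cells it was 4.36 to 5.67 in tdT+ and 2.39 and 1.65 in tdTneg libraries. Other leukocyte genes varied more. For the 10 pan-leukocyte genes, all higher on average in tdT+ cells (6 not overlapping, against 5.07% of all genes, median log2 fold change 2.43), the sum was 187, 217 and 73.4 CPM in tdT+ and 14.2, 74.3 and 9.59 CPM in tdTneg cells. *Coro1a*, a coat protein of actin in leukocytes, stood at 11.8, 18.9 and 6.61 against 2.75, 2.72 and 3.29 CPM. *Ptprc* (CD45) stood at 51.98, 41.6 and 27.3 against 2.56, 19.5 and 1.61 CPM. The higher tdTneg value of *Ptprc* belongs to replicate 2.

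Macrophage markers were high in the libraries at the negative end of the first principal component, whatever their tdT label. *Lyz2* stood at 35.2, 168 and 1.27 against 1.84, 20.7 and 0.366 CPM, and *Adgre1* at 35.03, 19.7 and 0 against 0.413, 3.304 and 0.317 CPM. The 8 genes summed to 175, 358 and 6.45 CPM in tdT+ and 6.67, 91.7 and 5.46 CPM in tdTneg cells, and 0 of 8 separated the groups. Their median log2 fold change was 2.05, but 1.31 without the library labelled tdT+ replicate 2 and 5.72 without tdTneg replicate 2. MHC class II and Langerhans cell genes lay between these patterns, with 3 of 10 not overlapping and higher, against 5.07% of all genes. Their median log2 fold change was 1.88, and 0.84 without the library labelled tdT+ replicate 2. Members with an unadjusted p under 0.05 went from 4 to 2, all higher, against 4.56% and 3.42% of all genes. *H2-Aa* stood at 37.6, 65.6 and 16.3 against 6.695, 13.8 and 3.07 CPM, and *Cd74*, the invariant chain, at 48.4, 148 and 27 against 25.6, 26.2 and 5.61 CPM (log2 fold change 1.96, and 0.98 without that library). *Cd207*, the Langerhans cell lectin, was low, at 0.181, 9.05 and 1.598 against 1.49, 0.952 and 0.927 CPM.

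**Figure D3:**
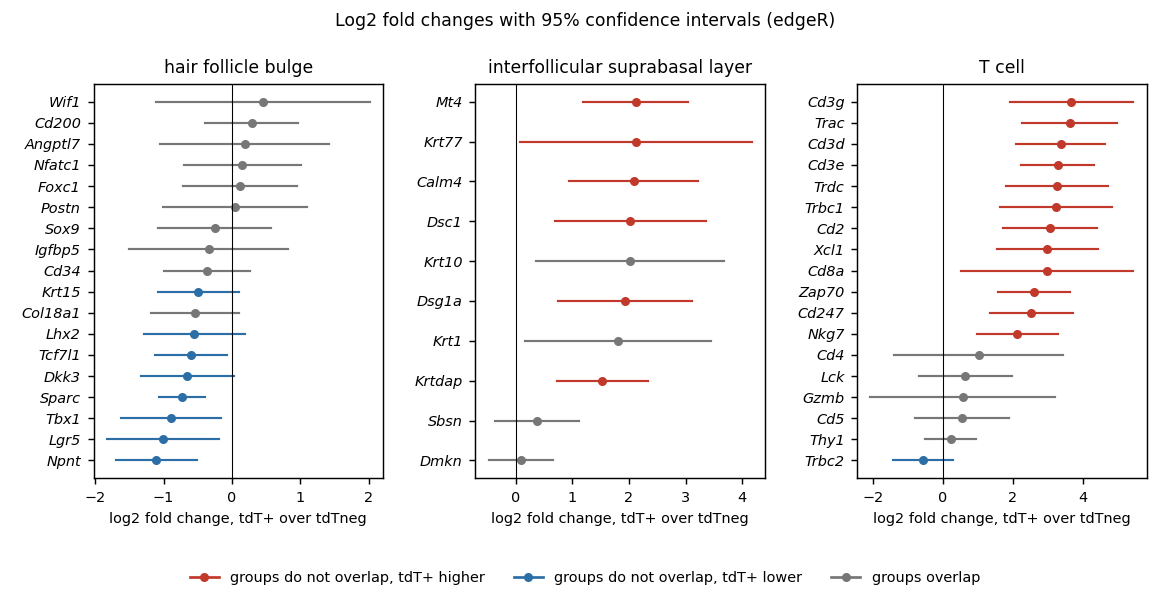
Log2 fold changes of tdT+ over tdTneg cells with 95% confidence intervals (edgeR, 3 libraries per group) for the tested genes of the bulge and suprabasal lists and 18 of the 19 T cell genes. Red and blue mark genes whose groups do not overlap, and 12 T cell genes and 6 suprabasal genes are red while 8 bulge genes are blue.

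Of the 18 bulge genes, all tested, 12 were lower and 6 higher in tdT+ cells. In edgeR 0 were called, and in DESeq2 1 was called lower, against 0.118% of all genes. For 8 the groups did not overlap, all lower, against 10.9% of all genes (6 with RLE size factors, against 7.3%). The median log2 fold change was −0.43, between −0.67 and −0.28 over 16 other settings. Beside *Sparc*, the lowest p-values were those of *Npnt*, *Lgr5* and *Tbx1*. *Npnt*, nephronectin, the matrix ligand to which arrector pili muscle is anchored at the bulge, stood at 121, 105 and 145 CPM in tdT+ and 234, 277 and 286 CPM in tdTneg cells (−1.11, SE 0.27, adjusted p = 0.241). *Lgr5*, a receptor of R-spondin in the lower bulge and hair germ, stood at 173, 101 and 204 against 359, 217 and 387 CPM (−1.01, SE 0.37). *Tbx1*, a transcription factor of bulge stem cell renewal, stood at 232, 275 and 318 against 548, 439 and 541 CPM. Other regulators of the bulge overlapped. *Sox9* had 442, 364 and 833 against 668, 551 and 730.3 CPM, and *Nfatc1*, which keeps bulge cells at rest, 324, 257 and 739 against 396, 347 and 446 CPM. *Postn*, periostin, had 3525, 8308 and 6046 against 6431, 3622 and 7294 CPM. The interval was within −1 and 1 for 3 of the 18, so differences of 2-fold in these genes are not bounded by these libraries. The mean of this list was 7.94, 7.92 and 8.58 against 8.55, 8.32 and 8.75 log2 CPM and overlapped, and in SCA-1+ cells it was 5.07 to 5.44 in tdT+ and 6.80 and 7.46 in tdTneg libraries.

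Markers of the infundibulum and junctional zone split. *Krt79*, a keratin of cells leaving the junctional zone, stood at 895, 444 and 1043 CPM in tdT+ and 358, 203 and 257 CPM in tdTneg cells (log2 fold change 1.54, SE 0.31, adjusted p = 0.179, edgeR). *Cst6*, cystatin M, a protease inhibitor of the infundibulum, stood at 252, 117 and 266 against 80.3, 53.02 and 82.7 CPM, and *Gata6*, a transcription factor of the junctional zone and sebaceous duct, at 45.5, 22.98 and 79.1 against 19.9, 12.5 and 16.7 CPM. *Defb6*, a defensin, overlapped in 1 library at 186, 80.8 and 222 against 61.8, 45.1 and 87.8 CPM. For these 4 genes the library labelled tdT+ replicate 2 was the lowest of the tdT+ libraries, and without it the log2 fold changes were 1.83, 1.84, 1.93 and 1.65. *Lrig1*, *Plet1* and *Lgr6*, stem cell markers of the same region, overlapped. Of 9 genes 4 had an unadjusted p under 0.05, all higher, against 4.56% of all genes, and the median log2 fold change of 0.37 turned to −0.31 without tdT+ replicate 3.

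Of the 10 suprabasal genes, all tested, 10 were higher on average in tdT+ cells. In edgeR 0 were called, and in DESeq2 5 were called higher, against 1.52% of all genes. An unadjusted p under 0.05 was reached by 8, against 4.56% of all genes, and 6 did not overlap, against 5.07%, with a median log2 fold change of 1.97 (1.43 to 2.72 over 16 settings). *Krtdap*, a keratinocyte differentiation-associated protein, stood at 208, 229 and 178 CPM in tdT+ and 104, 43.4 and 65.9 CPM in tdTneg cells (1.53, SE 0.36, adjusted p = 0.231). *Mt4*, the metallothionein of stratified epithelia, stood at 9.79, 13.8 and 7.16 against 3.51, 1.61 and 1.95 CPM, *Calm4* at 95.7, 106 and 79.7 against 41.3, 10.9 and 14.2 CPM, and the desmoglein *Dsg1a* at 176, 320.2 and 189 against 101, 25 and 53.8 CPM. The keratins spread more than these, and *Dmkn*, the most abundant member, overlapped. *Krt10* stood at 1225, 2308 and 697 against 774, 101 and 169.9 CPM, and *Krt1* at 559.8, 955 and 204 against 369, 63.1 and 61.8 CPM. In both, tdTneg replicate 1 lay above tdT+ replicate 3. *Krt77* did not overlap at 1099, 1623 and 776 against 620.3, 53.5 and 133 CPM. The list stood at a mean log2 CPM of 7.78, 8.33 and 7.51 against 7.07, 5.23 and 5.86, and in SCA-1+ cells at 8.76 to 9.25 in tdT+ and 8.99 and 7.71 in tdTneg libraries. Without the library labelled tdT+ replicate 2, 5 of the 10 had an unadjusted p under 0.05, all higher, against 3.42% of all genes. The level of suprabasal genes in tdTneg replicate 1, and of *Ly6a* and suprabasal genes together in the library labelled tdT+ replicate 2, moved with these differences, and their part in them was not tested.

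The 9 genes of the IFE basal layer were divided, 4 higher and 5 lower on average, with 2 higher and 1 lower at an unadjusted p under 0.05 (against 4.56% and 3.86% of all genes). The higher were *Ly6a*, given above, and *Sox6*, a transcription factor, at 33.99, 28.3 and 5.84 against 6.075, 10.7 and 2.29 CPM. The lower was *Slc1a3*, a glutamate transporter, at 5.76, 4.66 and 2.92 against 9.57, 8.96 and 6.46 CPM. The basal keratins were lower in values. *Krt14* stood at 3114, 3709 and 2615 against 3856, 5010 and 3884 CPM and *Krt5* at 8213, 8689 and 11350 against 11590, 12280 and 12320 CPM, with log2 fold changes of −0.43 (SE 0.25) and −0.36 (SE 0.24). Without overlap 1 of the 9 was higher and 3 were lower (against 5.07% and 10.9% of all genes), or 1 and 1 with RLE size factors.

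Of 32 cornified envelope genes 29 were tested and 25 were higher on average. In edgeR 0 were called, and in DESeq2 3 were called higher, against 1.52% of all genes. For 6 the groups did not overlap, against 5.07%. The list as a whole overlapped, at a mean log2 CPM of 1.83, 2.83 and 0.46 in tdT+ and 1.82, 0.69 and 0.33 in tdTneg cells. The median half-width of its intervals was 2.61. The median log2 fold change was 1.15, and 0.62 to 2.14 over 16 settings, the highest without tdTneg replicate 1. The protease gene *Klk7* stood at 40.1, 47.5 and 46.95 against 21.3, 19.5 and 21.6 CPM (1.11, SE 0.21, adjusted p = 0.163). *Casp14*, the caspase of cornification, stood at 14.5, 19.4 and 16.1 against 8.78, 3.81 and 3.93 CPM, and *Sprr1a* at 105, 94.4 and 131 against 69.2, 49.03 and 33.6 CPM. Of 16 barrier lipid enzymes 4 did not overlap, all higher, against 5.07% of all genes. At an unadjusted p under 0.05 there were 5, all higher, against 4.56% of all genes. Without the library labelled tdT+ replicate 2 there was 1, near the 3.42% of all genes. The smallest p-values were those of *Lipm* at 20.3, 30.8 and 19.1 against 11.8, 3.33 and 5.93 CPM and *Abca12*, the lipid transporter of lamellar bodies, at 48.5, 70.05 and 33.3 against 32.4, 11.3 and 15.3 CPM.

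The 23 transcription factors of keratinocyte differentiation were divided, with 12 higher and 11 lower and a median log2 fold change of 0.01 that turned below 0 in 4 of 16 settings. Of these, 6 did not overlap and were higher, and 1 (*Barx2*) lower, against 5.07% and 10.9% of all genes. *Grhl3*, which drives barrier formation, stood at 20.6, 22.3 and 21.9 CPM in tdT+ and 10.7, 3.44 and 4.22 CPM in tdTneg cells (1.82, SE 0.37, adjusted p = 0.187). *Ehf*, an epithelial ETS factor, stood at 30.5, 32.3 and 33.8 against 17.7, 5.97 and 8.78 CPM, *Zfp750*, which carries out terminal differentiation downstream of p63, at 63.8, 80.4 and 42.5 against 38.02, 17.5 and 19.6 CPM, and *Klf5* at 74.9, 140.0 and 107 against 73.8, 44.8 and 55.7 CPM. For *Grhl3* and *Ehf* the tdT+ libraries lay close together, and tdTneg replicate 1 was the highest of its group for all 4.

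In the Wnt pathway *Sfrp1*, a secreted inhibitor of Wnt ligands and the most abundant gene of the list, stood at 650.4, 519.5 and 780.3 CPM in tdT+ and 1494, 1906 and 1673 CPM in tdTneg cells (−1.38, SE 0.31, adjusted p = 0.229, edgeR). The ligand gene *Wnt3* stood at 10.6, 34.6 and 6.12 against 6.901, 1.401 and 2.34 CPM and the receptor gene *Fzd10* at 10.7, 23.8 and 19.5 against 11.3, 5.66 and 4.39 CPM, both overlapping. *Wnt16* had 9.69 CPM in the library labelled tdT+ replicate 2 and at most 1.55 CPM in the other 5. The target *Axin2* overlapped at 41.6, 36.3 and 54.4 against 42.2, 32.5 and 40.2 CPM. Of 30 tested genes, 3 were higher and 2 lower at an unadjusted p under 0.05 (against 4.56% and 3.86% of all genes), and 1 and 5 did not overlap (against 5.07% and 10.9%). With RLE size factors the latter were 2 and 3 (against 6.58% and 7.3%), near the shares of all genes.

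In the FGF pathway *Etv5*, a transcription factor induced by FGF signals, stood at 15.2, 11.8 and 13.2 against 28.7, 29.5 and 26.2 CPM (−1.07, SE 0.25, adjusted p = 0.231). The receptor genes *Fgfr3* (190.3, 233 and 249 against 339, 299.6 and 301 CPM) and *Fgfr2*, and *Dusp6*, the phosphatase that damps ERK (161, 159 and 203 against 225, 228 and 224 CPM), did not overlap either. These are 4 of 16 tested, with 0 higher, against 10.9% and 5.07% of all genes, and with RLE size factors 4 were lower and 1 higher. *Spry4*, a feedback inhibitor of FGF signals, overlapped at 11.1, 10.3 and 3.09 against 3.72, 4.78 and 4.03 CPM, with a log2 fold change of 0.97 (0.65 to 1.36 over 16 settings).

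In the EGF receptor family, 4 of 13 were non-overlapping and higher and 1 lower, against 5.07% and 10.9% of all genes. *Erbb3*, the receptor of neuregulins, stood at 252, 190.1 and 163 against 129, 127 and 103 CPM (0.75, SE 0.21, adjusted p = 0.353),, while its ligand gene *Nrg1* overlapped at 10.1, 5.195 and 3.09 against 15.7, 18.1 and 7.98 CPM. The ligand genes *Tgfa* and *Areg* were higher without overlap by a narrow gap, at 33.4, 42.5 and 41.6 against 30.97, 33.1 and 20.2 CPM and at 5.57, 6.91 and 9.04 against 5.56, 3.12 and 1.32 CPM. The ligand gene *Hbegf* was the lower gene, at 72.01, 82.4 and 79.6 against 98.6, 97.5 and 98.97 CPM, and *Egfr* itself overlapped.

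Of 12 Hedgehog genes 11 were lower on average, with a median of −0.38 (−0.65 to −0.14 over 16 settings), but 0 had an unadjusted p under 0.05. The effectors *Gli3* (48.8, 57.04 and 61.1 against 98.4, 62.03 and 71.1 CPM) and *Gli2* (log2 fold change −0.64) had the smallest p-values, and *Hhip*, the decoy receptor, was the exception at 20.1, 17.03 and 36.1 against 11.8, 5.47 and 16.4 CPM. Notch genes were divided. *Notch3* stood at 44.01, 48.3 and 53.8 against 40.4, 32.9 and 22.9 CPM and the ligand gene *Jag1* at 214, 249.7 and 255 against 420.5, 287 and 326 CPM, both without overlap, and 13 of the other 15 tested overlapped. In all 2 of 17 were higher and 2 lower without overlap, against 5.07% and 10.9% of all genes, so that the lower count is near the share of all genes. In the BMP and TGF-beta list of 23 genes the median was −0.05 and changed sign in 7 of 16 settings, and 0 were higher and 2 lower without overlap, near the 10.9% of all genes. *Fstl1*, an extracellular BMP antagonist, stood at 43.9, 53.5 and 39.9 against 77.8, 82.3 and 87.5 CPM, and *Bmp7* at 83.9, 47.6 and 128 against 57.4, 45.1 and 50.8 CPM.

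Among 13 genes of the aryl hydrocarbon receptor and NRF2 list, *Ahr* included, 11 were higher on average, 2 had an unadjusted p under 0.05 (*Ahr* and *Ahrr*, against 4.56% of all genes) and *Ahr* did not overlap. *Ahrr*, the repressor induced by the receptor, stood at 1.541, 0.536 and 0.331 against 0.165, 0.397 and 0.122 CPM (log2 fold change 1.81, SE 0.74, and 0.92 without tdT+ replicate 1). *Cyp1a1*, the classical target, had a log2 fold change of 3.15 (SE 1.97), which was 0.26 without tdT+ replicate 1, at 6.57, 0.643 and 0 against 0.434, 0.344 and 0.0244 CPM. *Cyp1b1* overlapped at 151, 90.7 and 264 against 138, 83.7 and 129 CPM and *Tiparp* at 105, 156 and 224 against 147, 107 and 174 CPM.

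**Figure D4:**
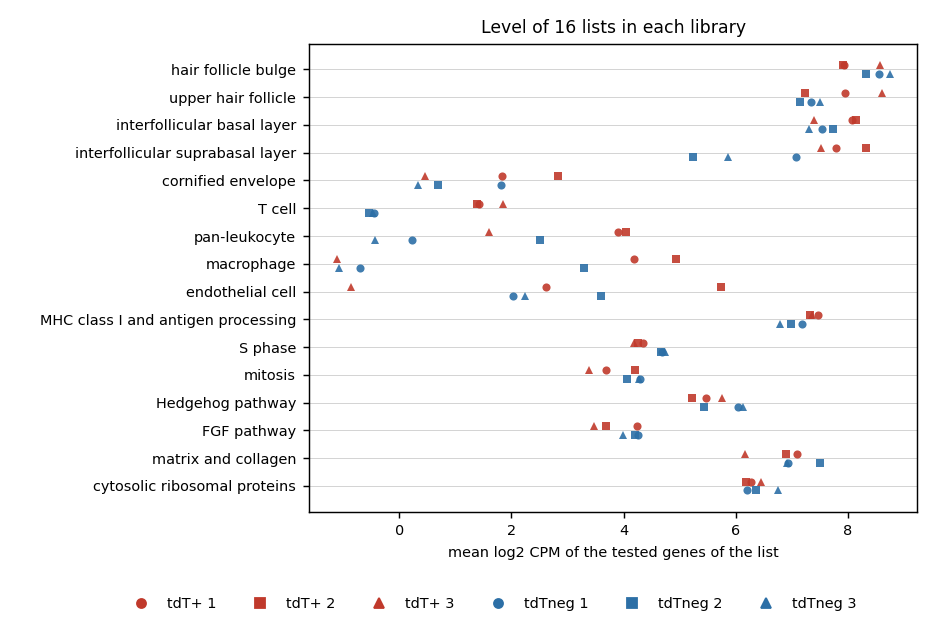
Mean log2 CPM of the tested genes of 16 lists in each of the 6 libraries, red for tdT+ and blue for tdTneg, with a symbol per replicate (the red square is the library labelled tdT+ 2). The groups are apart for the suprabasal, T cell, MHC class I and S phase lists, while the macrophage and endothelial lists vary within both groups.

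Among matrix genes *Tnc*, tenascin C, stood at 129, 62.98 and 80.1 CPM in tdT+ and 329, 498 and 288 CPM in tdTneg cells (−2.04, SE 0.51, adjusted p = 0.2597, edgeR). *Col12a1* and *Col16a1*, collagens that sit on fibril surfaces, stood at 158, 112 and 166 against 328, 374 and 239 CPM and at 161, 121 and 98.8 against 326, 294 and 179 CPM. Without overlap 5 of 20 were lower and 0 higher (4 and 0 with RLE size factors), against 10.9% and 5.07% of all genes, with a median of −0.28 (−0.40 to −0.18 over 16 settings). Of the hemidesmosome and laminin-332 genes, which hold basal cells to the basement membrane, 9 of 10 had an interval within −1 and 1. *Itga3* alone had an unadjusted p under 0.05, against 3.86% of all genes lower. It stood at 217, 248 and 261 against 377, 456 and 344 CPM (−0.70, SE 0.20). *Ptk2*, focal adhesion kinase, stood at 77.6, 60.2 and 61.3 against 88.4, 86.5 and 87.1 CPM. The gap junction gene *Gja1* (connexin 43) stood at 321, 241 and 189.6 against 609, 604 and 374 CPM (−1.08, SE 0.26, adjusted p = 0.241), while the tight junction genes *Cldn4* (32.6, 78.2 and 87.3 against 26.2, 13.2 and 15.7 CPM) and *Cldn1* (382, 472 and 599 against 322, 237 and 329.8 CPM) were on the other side. Desmosome genes had 0 of 10 at an unadjusted p under 0.05 and 8 of 10 intervals within −1 and 1.

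All 15 S phase genes, all tested, were lower on average in tdT+ cells, and 10 did not overlap (7 with RLE size factors, against 10.9% and 7.3% of all genes), with a median log2 fold change of −0.39 (−0.51 to −0.24 over 16 settings). The steps were small. *Mcm6*, a subunit of the replicative helicase, stood at 71.3, 66.2 and 60.6 CPM in tdT+ and 95.3, 85.8 and 90.1 CPM in tdTneg cells (−0.45, SE 0.12, adjusted p = 0.333). *Mcm2* stood at 36.8, 34.6 and 37.4 against 51.02, 54.6 and 48.9 CPM, and *Rrm2*, which makes deoxynucleotides, at 36.1, 26.2 and 23.6 against 50.3, 41.7 and 42.9 CPM. None was called, 3 had an unadjusted p under 0.05 (1 without the library labelled tdT+ replicate 2), against 3.86% of all genes (3.94%), and 9 of 15 intervals lay within −1 and 1. The mean of the list was 4.18 to 4.34 log2 CPM in tdT+ and 4.66 to 4.73 in tdTneg cells. Mitosis genes were lower in 18 of 19, but 2 did not overlap, near the 10.9% of all genes, and 0 with RLE size factors, and *Mki67* overlapped at 121, 134 and 82.00 against 146, 96.02 and 127 CPM. The library labelled tdT+ replicate 2 was the highest of the tdT+ libraries in this list, and without it 15 of 19 did not overlap and were lower, against 17.4% of all genes. Among cell cycle inhibitors *Cdkn2b* (p15) was higher, at 8.07, 5.62 and 5.01 against 4.36, 1.96 and 1.59 CPM (log2 fold change 1.24), and *Cdkn1a* overlapped at 99.5, 179 and 158 against 106, 79.8 and 97.3 CPM. Depth differed between the groups, and with counts thinned to the smallest total the median of the S phase list was −0.38.

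All 13 genes of MHC class I and antigen processing were higher on average in tdT+ cells, 6 without overlap (against 5.07% of all genes), with a median log2 fold change of 0.35 (0.23 to 0.50 over 16 settings). *B2m*, the light chain of class I molecules, stood at 1461, 1249 and 1544 CPM in tdT+ and 998, 779.7 and 1102 CPM in tdTneg cells (0.56, SE 0.20, adjusted p = 0.479, edgeR). *Nlrc5*, the transactivator of class I genes, stood at 155, 159.8 and 135 against 116, 85.7 and 68.7 CPM, and the immunoproteasome gene *Psmb8* at 59.1, 47.4 and 56.4 against 37.3, 36.00 and 28.4 CPM. The list is expressed by leukocytes too, and the part of these cells was not tested. The level of the T cell list was also apart between the groups, as given above. That of the pan-leukocyte list was not, at a mean log2 CPM of 2.51 in tdTneg replicate 2 and 1.59 in tdT+ replicate 3. Of 23 interferon response genes 17 were higher on average, with a median log2 fold change of 0.46 (0.05 to 0.90 over 16 settings). Only 1 had an unadjusted p under 0.05, near the 4.56% of all genes. Their intervals were wider, with a median half-width of 1.54 against 0.44 for the MHC class I list, and the lists were not tested against each other.

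Of 16 tested genes of epidermal cytokines and antimicrobial proteins, all were higher on average. In edgeR 0 were called, and in DESeq2 3 were called higher, against 1.52% of all genes. The groups did not overlap for 2, against 5.07% of all genes, or 4 with RLE size factors, against 6.58%. An unadjusted p under 0.05 was reached by 7, against 4.56% of all genes. Without the library labelled tdT+ replicate 2 it was reached by 4, against 3.42%, and the median log2 fold change fell from 1.46 to 0.76. *Tnf* stood at 1.68, 4.23 and 1.76 against 0.682, 0.449 and 0.268 CPM (2.44, SE 0.52, adjusted p = 0.199) and *Il1rn*, the interleukin 1 receptor antagonist, at 29.1, 40.5 and 14.6 against 12.1, 9.17 and 4.12 CPM. *Lcn2*, the most abundant, followed the first principal component at 597, 305 and 0.937 against 4.504, 257 and 3.66 CPM.

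For other gene groups the data bounded the difference. The interval lay within −1 and 1 for 47 of 49 cytosolic ribosomal protein genes, 33 of 34 nuclear-encoded genes of the respiratory chain, 16 of 18 glycolysis genes, 18 of 22 AP-1 and immediate early genes and 11 of 12 heat shock genes, against 41.4% of all genes tested. In the AP-1 list *Jun* stood at 1334, 1322 and 1968 against 2263, 2258 and 2063 CPM (−0.51, SE 0.21), and *Fos* overlapped. The 7 tested genes of the mitochondrial genome, of 13, were lower on average, with *mt-Nd4* at 1644, 1591 and 1692 against 2220, 2162 and 2938 CPM (−0.57, SE 0.18, adjusted p = 0.395). The share of all mitochondrial counts overlapped, at 4.20%, 3.56% and 2.57% in tdT+ and 2.78%, 3.59% and 3.70% in tdTneg libraries. Of 10 p53 targets 4 were higher and 6 lower on average, with a median of −0.06 that changed sign in 6 of 16 settings, and *Eda2r* stood at 3.63, 8.78 and 5.95 against 2.500, 2.696 and 2.76 CPM. Of 8 NF-kB feedback genes 6 were higher and 2 lower on average, and *Birc3*, an inhibitor of apoptosis, stood at 32.8, 50.6 and 40.01 against 31.4, 21.6 and 25.98 CPM.

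The sum of the endothelial genes was highest in the library labelled tdT+ replicate 2. *Pecam1* stood at 5.21, 175 and 1.05 against 7.98, 19.6 and 10.3 CPM, and the list of 12 summed to 146, 937 and 9.699 CPM in tdT+ and 58.1, 181 and 67.2 CPM in tdTneg cells. Its median log2 fold change was 2.05 and turned to −0.72 without the library labelled tdT+ replicate 2. *Cldn5*, a claudin of endothelial junctions, was the 1 gene of the list without overlap and was lower, near the 10.9% of all genes. Without the library labelled tdT+ replicate 2 there were 4 lower, against 17.4%. *Cldn5* stood at 0.906, 3.27 and 0.0551 against 4.86, 10.8 and 6.44 CPM (log2 fold change −2.38, SE 1.01, and −3.90 without that library). Of 10 melanocyte genes 3 were higher and 7 lower on average, and 1 and 3 did not overlap, against 5.07% and 10.9% of all genes. *Kit*, a receptor kinase, was the higher, at 8.57, 7.77 and 7.61 against 5.600, 6.48 and 3.76 CPM. *Dct* stood at 31.7, 11.7 and 19.2 against 35.3, 33.8 and 37.2 CPM, and the median of the list was −0.50. Fibroblast, muscle, erythroid and Schwann cell lists had medians that changed sign in some setting or lists of at most 6 genes, and of Merkel cell genes *Atoh1* was at 0 counts in every library. Of 12 sebaceous gland genes 3 were higher and 9 lower on average, and 2 did not overlap, both lower, against 10.9% of all genes. The median of −0.53 turned to 0.43 with at least 10 counts in every library. *Cidea* had the smallest p, at 0.997, 1.12 and 0.551 against 6.03, 3.15 and 5.05 CPM (−2.41, SE 0.68, adjusted p = 0.353).

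**Figure D5:**
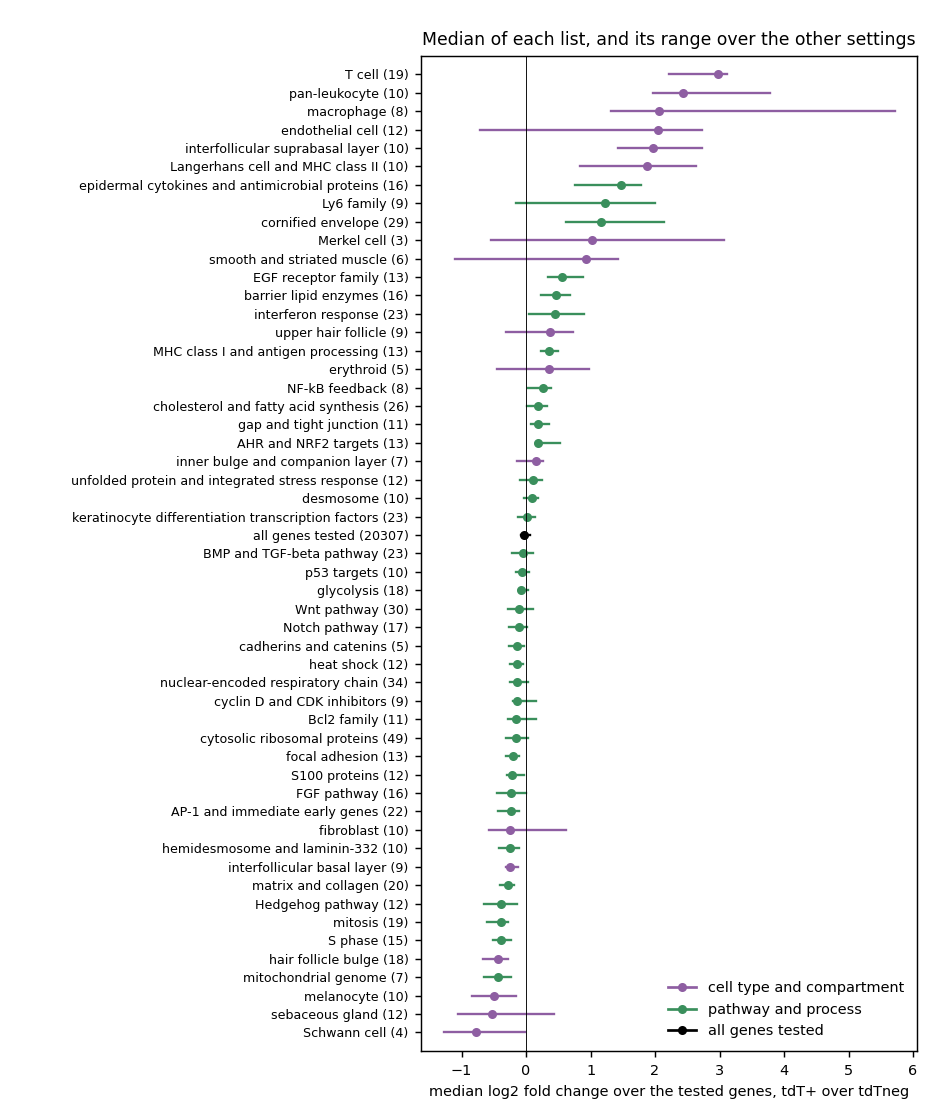
Median log2 fold change of tdT+ over tdTneg cells over the tested genes of each list (points), with the range of that median over 16 other settings (lines), for 17 lists of cell types and compartments, 35 of pathways and processes and all 20307 genes tested. The number of tested genes is in parentheses, and the line of the endothelial list crosses 0 while those of the T cell and suprabasal lists stay above 1.4.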

How the data were processed

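RNA was measured in 11 libraries of sorted epidermal cells. Per the study's methods, the authors aligned reads with STAR to mm10, counted them per gene of Ensembl release 96 with featureCounts and deposited these raw counts, and the strand setting is not given in the sources used here. The submitters' processing notes also name bcl2fastq 2.20.0.422, FastQC and DESeq2 1.18.1. Totals were 17409131 to 46542177 counts. A row outside the Ensembl genes was kept out of totals and tests.

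The counts were tested with edgeR 4.0.16 in R 4.3.3 (TMM, filterByExpr on the 4 groups, glmQLFit and glmQLFTest on all 11 libraries with a mean per group, so that they share the estimate of the spread). The filter keeps a gene that is high in a single group, so counts over tested genes are descriptions. Calls needed a log2 fold change beyond 1 in size and a Benjamini-Hochberg adjusted p under 0.05. DESeq2 1.42.0 and limma 3.58.1 were alternatives, and tables and figures used Python 3.11.15. A list level averages log2 CPM (prior count 2) over genes, and differences between same-numbered libraries use a pseudocount of 1 CPM. The fits were also run on simulated counts drawn independently for each library, without the first principal component seen here, and no result rests on them. Libraries of 1 number were taken to share a pool of mice, since the methods give 3 biological replicates of 2 mice each, sorted into the 4 populations. The labels do not say so. The deviations of same-numbered libraries correlated at −0.42, 0.32 and 0.59 across genes in replicates 1, 2 and 3. Those of tdT+ replicate 1 with tdTneg replicate 2 correlated at 0.51, and of tdT+ replicate 3 with tdTneg replicate 1 at 0.46. No libraries of a group were within sampling noise of each other.

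The comparison, the 52 lists (768 genes, 748 tested) and the alternatives were chosen with earlier results of these data known. Genes named were the called genes, the 12 higher and 12 lower with the smallest p among non-overlapping genes averaging at least 5 CPM in the higher group, up to 4 per list by p, the most abundant of each cell type list, and *Itga6*, *Cd34*, *Ly6a* and *Cd4*. *Trdc*, *Trbc2*, *Cd207*, *Sox9*, *Nfatc1*, *Postn*, *Lrig1*, *Plet1*, *Lgr6*, *Krt10*, *Krt1*, *Krt77*, *Krt14*, *Barx2*, *Axin2*, *Fgfr2*, *Hbegf*, *Egfr*, *Hhip*, *Cyp1b1*, *Tiparp*, *Mki67*, *Lcn2*, *Fos*, *Pecam1*, *Atoh1*, *Dock10*, *Itgal*, *Cd163l1*, *Apold1*, *Pdgfrb* and *C1qa* were added after their values were seen. A gene of the T cell list is counted in its totals but not reported here.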

Additional observations from a re-analysis of the deposited data

Results flagged for a closer look

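The row outside the Ensembl genes, which no comparison used, reached 252 CPM in tdT+ replicate 3 of the CD49f+CD34+ cells, against at most 3.78 CPM in their tdTneg libraries.

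For 7 named genes the difference between tdT+ and tdTneg cells was itself different between these cells and those sorted as SCA-1+, by edgeR's test of the interaction adjusted over all genes, and the 2 tdTneg libraries of the SCA-1+ cells limit its precision. *Cd34* had a log2 fold change of −0.36 here (−0.55 to −0.14 with 1 library left out) and −3.68 in SCA-1+ cells, a difference of 3.32 (adjusted p = 0.0132). *Icam1*, the leukocyte adhesion receptor, had 0.68 (0.08 to 0.92 with 1 library left out) and −2.32, a difference of 3.001 (adjusted p = 0.0439). *Col4a2* had −0.75 and −3.71, a difference of 2.96 (adjusted p = 0.0453), and *Fstl1* had −0.85 and −3.66, a difference of 2.81 (adjusted p = 0.0326). *Sparc* had −0.73 and −2.55, a difference of 1.82 (adjusted p = 0.00988). Endothelial genes moved with the SCA-1+ groups: the list of 12 stood at a mean of 2.02 to 2.72 log2 CPM in tdT+ and 7.58 and 7.66 in tdTneg SCA-1+ libraries, *Plvap* averaged 20.1 and 961 CPM in them, and their part in these differences was not tested. *Pros1* was higher in tdT+ cells here (0.74) and lower in SCA-1+ cells (−0.73), a difference of 1.47 (adjusted p = 0.00988). *Adamtsl5* was the reverse, with −0.90 and 0.59, a difference of −1.49 (adjusted p = 0.0287).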

How the results depend on the processing

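The number of genes called higher and lower, 2 and 0 as reported, was 308 and 24 with DESeq2, 151 and 15 with a minimum of 1 count in any library, 117 and 21 with limma voom and library weights, 19 and 1 with at least 10 counts in every library, 9 and 0 with counts thinned to the smallest total, 5 and 0 with RLE size factors, 4 and 0 with the replicate block, and 0 and 0 with only the 6 libraries compared (786 and 682 at an unadjusted p under 0.05 in edgeR). With 1 library left out it ran from 0 to 5 higher, with 0 lower. It was 0 without the library labelled tdT+ replicate 2 or tdTneg replicate 3 (697 and 803, and 525 and 495, at an unadjusted p under 0.05 in edgeR), 1 (*Grhl3*) without tdTneg replicate 1, 5 (*Akna*, *Ptprc*, *Dock10*, *Itgal* and *Arhgap45*) without tdTneg replicate 2, 3 (*Akna*, *Cd7* and *Cd163l1*) without tdT+ replicate 1 and 2 (*Akna* and *Cytip*) without tdT+ replicate 3. Chosen after seeing the data, DESeq2 without the library labelled tdT+ replicate 2 called 178 and 51, of which 166 were also called with that library, and the block without that library 0 and 1 (*Apold1*). At an unadjusted p under 0.05 the counts of 926 and 783 ran from 525 to 2687 higher and from 363 to 1763 lower. The cause of these changes was not tested, other than the fewer samples or genes that some settings use. Of 238 named genes 21 changed sign in some setting, with 0 reversals of a called gene. The replicate block lost *Ly6d* and added *Ikzf1*, *Arhgap45* and *Il2rg*, and changed no other call.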

Other observations

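Several epithelial and stromal genes were on or off by library rather than by group. *Krt18*, a keratin of simple epithelia, stood at 97.5, 44.5 and 0.716 CPM in tdT+ and 0.744, 50.5 and 0.268 CPM in tdTneg cells, and *Krt8* at 47.4, 10.3 and 3.36 against 2.23, 25.1 and 2.66 CPM. *Pdgfrb*, a receptor of perivascular and dermal cells, stood at 12.7, 6.05 and 0.1102 against 0.207, 10.8 and 0.756 CPM. *C1qa*, a complement gene of macrophages, stood at 18.04, 38.9 and 0.165 against 0.207, 13.1 and 0.171 CPM. In each, tdT+ replicate 1, the library labelled tdT+ replicate 2 and tdTneg replicate 2 held the 3 highest values, the same libraries that the first principal component set apart. These genes were chosen after their values were seen.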
